A study of Mus musculus with 18 samples.

Results

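The 6 untreated tumours described here are the reference samples of a mouse melanoma experiment with 18 RNA sequencing libraries in 6 groups of 3. They were chosen by their titles, which name 3 libraries as control right and 3 as control left, and all genes were considered. Per the labels, C57BL/6 mice received MO4 cells, a B16F10 melanoma line of C57BL/6 origin that expresses ovalbumin (OVA), under the skin of both hindlimbs on day 0, with 100000 cells per side, and RNA of tumour tissue was taken on day 11. The other 12 libraries come from mice in which cells derived from induced pluripotent stem cells, with or without an IFN-α label, were placed beside the right tumour; the 6 control tumours received no cells on either side. The labels call the right control a treated tumour by its side only. No source used here gives the age or sex of the mice, or says whether a right and a left tumour with the same number grew in the same mouse or whether a library pools animals. Nothing in the labels says that the 3 samples of a group came from separate mice, so p-values cover only the spread between samples, which may be technical. Libraries are called right 1, right 2, right 3, left 1, left 2 and left 3. The comparison of the sides asks how far 2 untreated tumours that differ in side alone by their labels lie apart, which is the background for any comparison of a right with a left tumour.

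B16 melanoma cells are of the melanocyte lineage. Melanocytes make melanin in specialised organelles through tyrosinase (Tyr) and the related enzymes Tyrp1 and Dct, on fibrils built from Pmel, under the transcription factors Mitf and Sox10. A tumour grown under the skin of a limb also holds host vessels, connective tissue, blood and leukocytes, and can take in strips of the muscle beneath it, so bulk RNA of such a tissue sums all of these. In bulk RNA, fewer cells of a type and less RNA per cell cannot be told apart.

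Promoters of 3 pigment genes and 3 muscle fibre genes are shown. They were picked because the scores of their gene lists, described below, had the narrowest and the widest range over the 6 libraries. Single pigment genes such as Dct varied more than their list score. Each run holds the 250 bases before a gene's start in RefSeq on build GRCm38.p6, 5′ to 3′ on the gene's strand; promoters and motifs were chosen after values and sequences had been seen. In the pigment genes the capitals mark CATGTG on either strand (CACATG when read from the other strand), the core of the motif through which Mitf is known to act. The windows are chr4:80833963-80834212 on the plus strand for Tyrp1, chr7:87493513-87493762 on the minus strand for Tyr and chr14:118052247-118052496 on the minus strand for Dct.
Tyrp1: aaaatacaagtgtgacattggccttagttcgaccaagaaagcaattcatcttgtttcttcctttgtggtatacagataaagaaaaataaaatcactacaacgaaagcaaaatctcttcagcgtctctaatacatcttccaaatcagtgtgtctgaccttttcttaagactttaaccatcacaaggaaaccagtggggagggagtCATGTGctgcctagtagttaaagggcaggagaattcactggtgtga
Tyr: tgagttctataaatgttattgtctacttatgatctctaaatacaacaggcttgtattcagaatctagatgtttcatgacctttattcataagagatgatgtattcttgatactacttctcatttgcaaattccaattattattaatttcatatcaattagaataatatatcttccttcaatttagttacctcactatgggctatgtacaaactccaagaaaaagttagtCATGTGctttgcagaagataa
Dct: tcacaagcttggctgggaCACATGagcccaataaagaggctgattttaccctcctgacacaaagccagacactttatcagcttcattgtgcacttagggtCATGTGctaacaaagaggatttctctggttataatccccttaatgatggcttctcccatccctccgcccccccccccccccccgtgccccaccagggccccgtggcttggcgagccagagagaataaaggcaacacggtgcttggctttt

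The Tyrp1 and Tyr windows held CATGTG 1 time each and the Dct window held it 2 times. Of 18 genes of the melanocyte list with a promoter entry, 8 (44.4%) held CATGTG in this window (Dct, Gjb1, Mc1r, Oca2, Slc24a5, Trpm1, Tyr and Tyrp1), beside 13.8% of 27025 genes. The longer M-box, an extended form of CATGTG, was found in the windows of Tyr and Tyrp1 and, with these counted, in 7 of 32851 promoters (0.0213%). In the muscle genes the capitals mark CAGCTG, a palindrome and a common form of the E-box read by MyoD family factors. The windows are chr8:123894776-123895025 on the minus strand for Acta1, chr7:19410844-19411093 on the plus strand for Ckm and chr11:67237562-67237811 on the plus strand for Myh4.
Acta1: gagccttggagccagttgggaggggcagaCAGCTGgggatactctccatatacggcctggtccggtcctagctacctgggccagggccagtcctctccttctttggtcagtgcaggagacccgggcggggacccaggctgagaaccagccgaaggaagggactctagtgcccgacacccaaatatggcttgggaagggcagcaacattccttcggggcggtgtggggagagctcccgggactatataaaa
Ckm: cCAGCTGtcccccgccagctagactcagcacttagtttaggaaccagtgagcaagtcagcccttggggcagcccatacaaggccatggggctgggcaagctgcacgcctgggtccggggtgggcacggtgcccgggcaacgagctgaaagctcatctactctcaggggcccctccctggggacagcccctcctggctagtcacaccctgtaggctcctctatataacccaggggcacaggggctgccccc
Myh4: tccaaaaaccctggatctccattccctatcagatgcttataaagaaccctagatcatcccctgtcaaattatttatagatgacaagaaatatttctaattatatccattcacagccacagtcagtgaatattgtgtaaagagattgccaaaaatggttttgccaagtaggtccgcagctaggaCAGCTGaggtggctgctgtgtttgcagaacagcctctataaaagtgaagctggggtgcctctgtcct

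CAGCTG was present in 12 of 22 muscle fibre genes with a promoter entry (54.5%), among them the creatine kinase gene Ckm, and in 14.7% of all genes. A match is a description of these letters, not a measured binding site.

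Between 14346091 and 20852323 read pairs per library were assigned to genes, and 17844 to 18652 genes had at least 1 count. In a library of this size 3 counts, the upper limit that a count of 0 allows, correspond to 0.144 to 0.209 CPM (counts per 1000000 gene counts of the library); such floors and intervals of ratios cover counting error only. Before any result, 4 libraries need naming. Right 3 and right 2 stood at opposite ends of a trend with transcript length, described below, and right 1 and left 1 held the highest levels of skeletal muscle genes. Read pairs in no annotated feature made up 6.87% in right 3 and 12.2% in right 2, with 7.90 to 10.4% in the other four. No pair of libraries agreed within sampling noise (chi-square per degree of freedom of at least 5.35), so none was taken for a library deposited again and each was counted once; that comparison does not show that the libraries came from separate tumours.

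Pigment genes headed the untreated transcriptome. Dct (ENSMUSG00000022129, dopachrome tautomerase) had the highest mean, 11428 ± 2100 CPM (SD, n = 6), followed by Tyrp1 (ENSMUSG00000005994) at 9944 ± 725 CPM, the translation factor Eef1a1 at 9748 ± 2898 CPM and Pmel (ENSMUSG00000025359) at 7967 ± 460 CPM. Gpnmb, a melanosome and lysosome glycoprotein, was the fifth at 5096 ± 722 CPM. Tyr itself averaged 2075 ± 389 CPM and the melanoma antigen gene Mlana 1756 ± 506 CPM. The 25 melanocyte lineage genes of the list took 4.71 ± 0.18% of all gene counts, from 4.42% in right 1 to 4.97% in right 3. The labelled tissue, melanoma, was thus carried by its defining markers in all 6 libraries.

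By library, Dct stood at 10154, 9523 and 15461 CPM in right 1, right 2 and right 3 and at 10714, 11458 and 11258 CPM in left 1, left 2 and left 3. Right 3 was the highest and the other right tumours the lowest, so the right values spanned the left ones. Tyrp1 ran from 8987 CPM in right 3 to 11084 CPM in right 2, with 9545 in right 1 and 10279, 9625 and 10146 in left 1, left 2 and left 3. The order of right 2 and right 3 was thus the reverse of that for Dct. Pmel was at 7067, 8284 and 7917 CPM on the right and at 8194, 8246 and 8096 CPM on the left. Only right 1 lay apart.

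The regulators Mitf and Sox10 averaged 1385 ± 166 and 727 ± 195 CPM. Mitf ran from 1133 CPM in right 1 to 1595 CPM in left 3, and Sox10 from 356 CPM in right 3 to 875 CPM in left 1. The melanosomal transporter gene Slc45a2 (1251 ± 76.9 CPM) and the melanocortin receptor gene Mc1r (179 ± 12.7 CPM) varied less. Kit, the receptor on which normal melanocytes depend, was the lowest of the 25 at 1.96 ± 0.38 CPM, and the adhesion gene Cdh1 was at 5.08 ± 0.81 CPM. The list therefore ran from among the highest levels measured down to about 2 CPM in the same tumours.

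**Figure D1:**
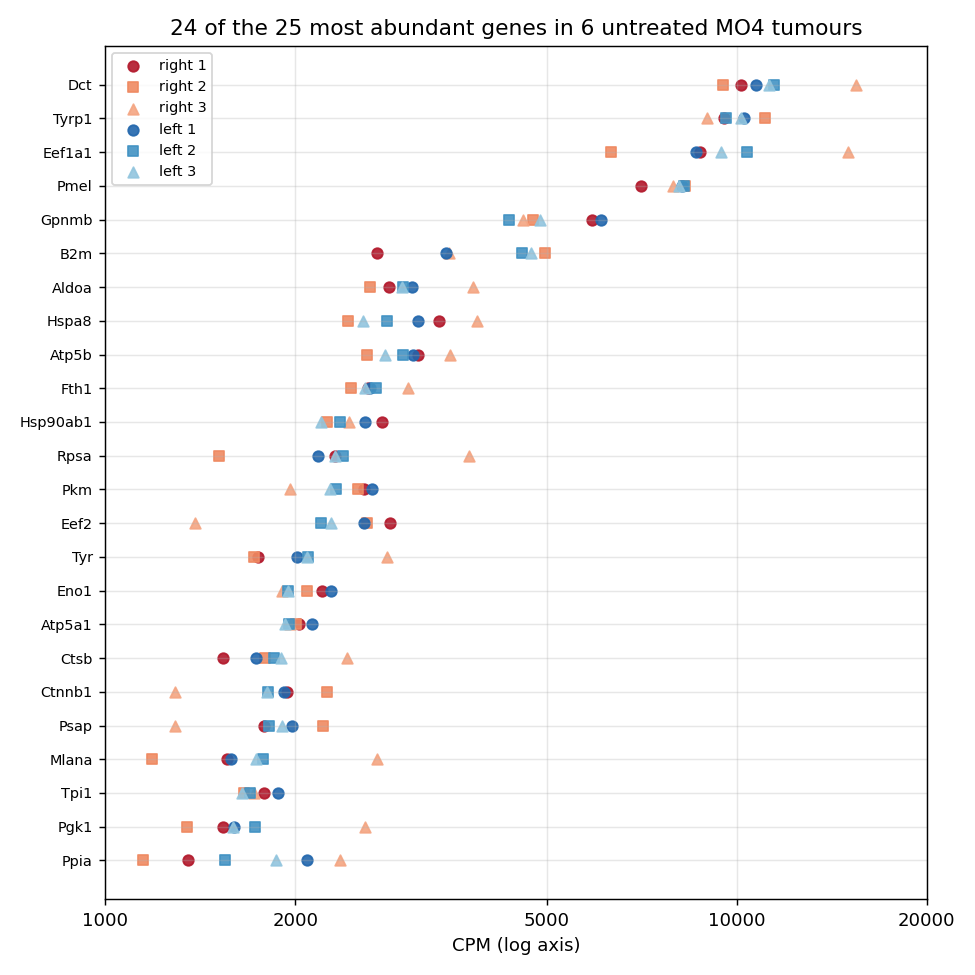
CPM on a log axis for 24 of the 25 genes with the highest mean over the 6 untreated libraries, each point 1 library, red for right and blue for left. Dct, Tyrp1, Eef1a1 and Pmel lie above all others, and right 3 is often the highest or the lowest point of a gene.

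The rest of the 25 most abundant genes were largely housekeeping genes. They included B2m, the light chain of MHC class I (3990 ± 899 CPM), the glycolytic genes Aldoa, Pkm, Eno1, Tpi1 and Pgk1, the ATP synthase genes Atp5b and Atp5a1, the chaperones Hspa8, Hsp90ab1 and Ppia, the ferritin gene Fth1, the ribosomal protein gene Rpsa, the translation factor Eef2, the lysosomal genes Ctsb and Psap, and Ctnnb1, which encodes β-catenin. Together the 25 genes held 9.16 ± 0.57% of the counts (8.55 to 10.2%). Protein coding genes held 98.3 ± 0.20%. Some of these genes kept their level closely, as Atp5a1 did at 2000 ± 72.0 CPM and Tpi1 at 1731 ± 87.2 CPM. Others did not. Eef2 was at 1385 CPM in right 3 against 2198 to 2823 CPM in the other libraries.

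CPM favours long transcripts, so genes were also ordered by counts per kilobase of exonic length, scaled to 1000000 in each library. On that scale B2m was first at 14894 ± 4067, ahead of Eef1a1 (12216 ± 2401), Tyrp1 (11280 ± 1751), Pmel (11103 ± 1236), the ribosomal stalk gene Rplp1 (6917 ± 1099), Dct (6110 ± 525), Mlana (5193 ± 962), the galectin gene Lgals1 (4869 ± 697) and Rpl32 (4232 ± 1403). Gm23935, an annotated gene of 57 bases, was second at 14585 ± 2456, a value that rests on a length far below that of a sequenced fragment. B2m, Eef1a1, Tyrp1 and Pmel lay within 1 SD of at least 1 neighbour in this order. The length-scaled level of Dct was thus below those of Tyrp1 and Pmel although its CPM was above them.

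Host cells were present at levels that differed by lineage. Macrophage genes summed to 2040 to 3141 CPM over 24 genes, led by Apoe (1202 ± 87.9 CPM), the lysozyme gene Lyz2 (370 ± 198 CPM) and the complement gene C1qb (156 ± 48.1 CPM); Apoe is also made by other cells. T cell genes summed to 38.4 to 68.6 CPM over 20 genes, with Cd8a, a coreceptor of cytotoxic T cells, at 2.18 to 6.47 CPM and Cd4 at 2.23 to 5.28 CPM. The 16 NK and cytotoxic genes summed to 33.0 to 73.0 CPM, led by the chemokine gene Ccl5 at 20.4 ± 3.62 CPM. Endothelial genes summed to 278 to 636 CPM (von Willebrand factor, Vwf, 77.0 ± 23.8 CPM) and 27 fibroblast and matrix genes to 1165 to 1949.95 CPM. Sparc made up much of the last sum at 993 ± 150 CPM, while the collagen gene Col3a1 was at 123 ± 56.6 CPM. Bulk RNA does not show whether host or tumour cells made the Sparc RNA.

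Several host lineages were at or near 0. Of 12 keratinocyte and hair follicle genes, 7 had no count in any of the 6 libraries, the basal keratins Krt5 and Krt14 among them. Neutrophil genes summed to 5.16 to 7.19 CPM, mostly from the receptor gene Csf3r (4.90 ± 1.01 CPM); Ly6g, Elane and Mpo had no count, and S100a8 was at 0.31 ± 0.18 CPM. Mast cell and basophil genes summed to 3.59 to 4.99 CPM. Among 6 genes read as a check of sex, Xist was at 9.86 to 25.8 CPM in the 6 libraries and the 4 Y-linked genes had no count. The 37 mitochondrial gene IDs held 0 counts, so nothing can be said of mitochondrial RNA.

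Genes of interferon signalling and antigen presentation were expressed without any treatment. The interferon-γ inducible GTPase genes Iigp1 and Irgm1 were at 575 ± 138 and 518 ± 89.6 CPM, and the T cell attracting chemokine genes Cxcl9 and Cxcl10 at 96.4 ± 17.8 and 135 ± 13.8 CPM. Ifng, which encodes interferon-γ, was at 0.69 ± 0.38 CPM. B2m was at 2694, 4970 and 3507 CPM in right 1, right 2 and right 3 and at 3463, 4579 and 4725 CPM in left 1, left 2 and left 3. Right 1 was lowest and left 1 next lowest, and the sides overlapped. The same 2 libraries had the lowest summed level of 17 interferon-γ response genes, 2359 and 2635 CPM, with 3158 to 3741 CPM in the other four.

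MHC class II genes, made by dendritic cells, B cells and macrophages, led the dendritic cell list, which summed to 577 to 1097 CPM over 16 genes: Cd74 was at 342 ± 93.4 CPM and H2-Aa at 208 ± 73.3 CPM. H2-Aa was at 114, 228 and 320 CPM in right 1, right 2 and right 3 and at 140, 220 and 225 CPM in left 1, left 2 and left 3. The libraries numbered 1 were again the lowest on each side. B and plasma cell genes summed to 32.4 to 55.1 CPM (Ighm 16.9 ± 5.11 CPM). Schwann cell and nerve genes summed to 188 to 225 CPM. Immediate early genes, which respond within minutes to handling of tissue, had a narrow range of scores, 0.25, with Nr4a1 at 130 ± 32.5 CPM and Nr4a3 at 222 ± 67.9 CPM.

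Dividing cells were well represented: Mki67, a marker of cycling cells, averaged 325 ± 117 CPM and the topoisomerase gene Top2a 316 ± 41.9 CPM. Mki67 was at 446, 436 and 129 CPM in right 1, right 2 and right 3 and at 336, 274 and 326 CPM in left 1, left 2 and left 3. Pcna, the replication clamp, went the other way in right 3, where it was highest at 422 CPM against 198 to 287 CPM. The exonic length is 10061 bases for Mki67 and 2400 bases for Pcna, and the part of the length trend in this contrast was not tested.

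Right and left untreated tumours were not told apart by any gene. With edgeR's quasi-likelihood test on all 18 libraries, 0 of 14849 genes (0%) passed an adjusted p of 0.05, and the smallest adjusted p was 0.9999. At an unadjusted p under 0.05 there were 116 genes (0.781%), 83 higher and 33 lower on the right. This was below the share of 0.05 that evenly spread p-values would give. Genes share their libraries, so this share alone cannot show whether the test was cautious. That 0 genes passed does not show that the sides are alike either. Without right 2 the share was 4.48%, and without right 3 it was 0.939%. DESeq2 and limma voom with sample quality weights also called 0 genes. At an unadjusted p under 0.05, DESeq2 had 158 of 23464 genes (0.673%) and limma voom 1507 of 14849 (10.1%). The share from limma voom was thus far above that of the edgeR fit. The 3 right values lay above all 3 left values in 141 genes (0.95%) and below them in 174 (1.17%). The median log2 fold change, right minus left, was 0.02 and its median size 0.11.

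How small a difference this comparison could bound follows from the intervals. Over genes, log2 fold changes had a median standard error of 0.25. The 95% interval lay inside a 2-fold difference in either direction for 11149 genes (75.1%). Among the 9655 genes with a mean of at least 10 CPM it did so for 92.8%. All intervals here take their spread from every group of the series, those given cells included. The right controls varied most, with a median SD of log2 CPM of 0.38, against 0.13 to 0.28 in the other groups. The pooled spread may thus be too small for this comparison, and the shares of bounded genes too high. Shares from the untreated libraries alone are not given here. For Tyrp1 the log2 fold change was 0.01 (95% interval −0.35 to 0.36), for Dct 0.13 (−0.42 to 0.69), for Pmel −0.04 (−0.42 to 0.34), for B2m −0.17 (−0.66 to 0.33) and for Apoe −0.00 (−0.34 to 0.34). For 282 genes (1.9%) the estimate itself was beyond 2-fold, and none of these passed the test.

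**Figure D2:**
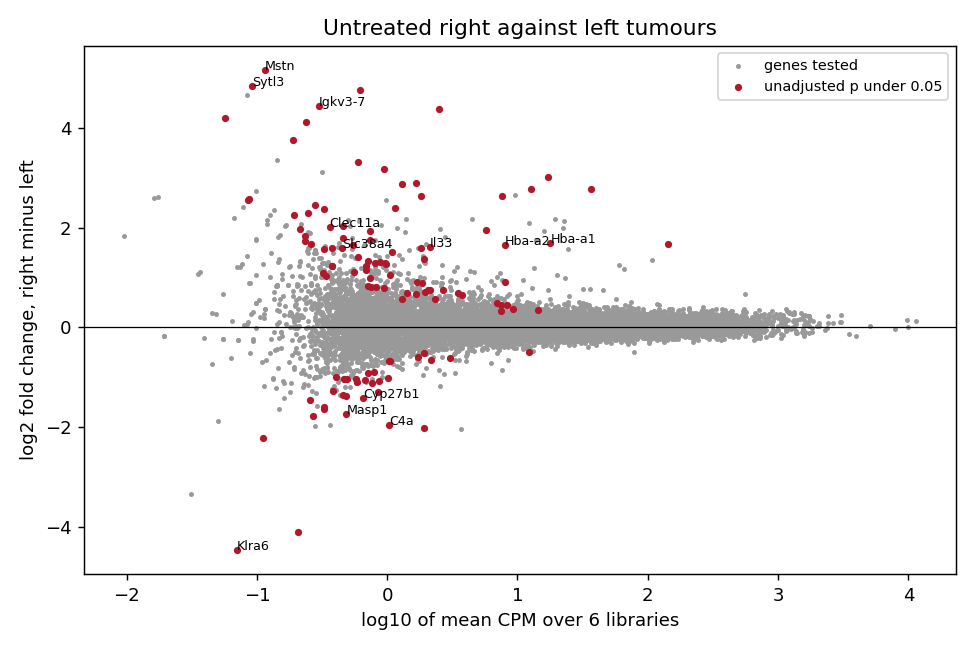
Log2 fold change of right over left untreated tumours against the log10 of the mean CPM, 1 point per gene tested. Red points are the 116 genes with an unadjusted p under 0.05, of which none passed after adjustment, and the 12 genes with the smallest p are named.

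The 12 genes with the smallest p are given by their values only, since none passed. Several were near the detection floor: Sytl3 had 11 counts on the right and 0 on the left (at least 3.01-fold higher, with 3 counts over the group as the floor), Mstn, the muscle growth inhibitor myostatin, 14 and 0 (at least 3.83-fold higher) and Klra6, an NK receptor gene, 0 and 7 (at least 2.84-fold lower). Igkv3-7, an antibody light chain segment, had 35 counts and 1 count, a ratio of 28.7 with a 95% counting interval of 4.83 to 1167. Clec11a, Slc38a4, Masp1, Cyp27b1 and C4a all had side means under 2 CPM. The cytokine gene Il33 was at 4.42, 0.82 and 4.28 CPM on the right and at 1.47, 0.91 and 0.82 CPM on the left, so right 2 fell among the left values.

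The α-globin genes Hba-a1 and Hba-a2 were the most abundant of the 12. Hba-a1 was at 23.4, 15.01 and 42.4 CPM in right 1, right 2 and right 3 and at 5.75, 8.36 and 12.3 CPM in left 1, left 2 and left 3. Every right value was above every left value. Its log2 fold change was 1.69 ± 0.52 (SE; 95% interval 0.55 to 2.83) and its adjusted p from edgeR was 0.9999. Hba-a2 was at 9.56, 5.95 and 20.3 CPM on the right and at 3.52, 2.37 and 6.10 CPM on the left, where left 3 lay just above right 2. The 2 genes are near-identical copies, so reads shared between them may be lost or split.

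Hbb-bs, the major β-globin gene here, was at 214, 50.1 and 373 CPM on the right and at 35.4, 45.03 and 134 CPM on the left, with a log2 fold change of 1.68 (0.09 to 3.27). Right 3 and right 1 were the highest and right 2 was within the left range. Alas2, the red cell enzyme of heme synthesis, was at 2.23, 1.73 and 4.28 CPM on the right and at 0.76, 0.91 and 1.64 CPM on the left, with no overlap and a log2 fold change of 1.37 (0.29 to 2.46). Of the 9 erythroid and platelet genes tested, of 13 measured, 0 passed the adjusted threshold, 5 had an unadjusted p under 0.05 and 2 did not overlap between the sides. Over all genes tested, 0.781% had such a p, and in 0.95% all right values lay above all left values. Members of the list share their libraries and are not independent observations. The median log2 fold change of the list was 1.37, beside 0.02 over all genes; without right 3 it was 0.79, and for Hba-a1 it was 1.08.

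Across 31 gene lists with 486 tested entries, 0 members passed. List medians of the log2 fold change were positive for 24 lists and negative for 7, and 19 lay within 0.2 of 0. The melanocyte median was −0.05, that of 25 type I interferon response genes 0.08, of 17 interferon-γ response genes 0.04, of 20 T cell genes 0.07, of 24 macrophage genes 0.22 and of 30 proliferation genes 0.17. With each library left out in turn, the proliferation median stayed at 0.12 to 0.26, and the others changed sign. The macrophage median ran from −0.16 without right 3 to 0.45 without right 1, and the T cell median from −0.24 without right 2 to 0.39 without right 1, also below 0 without right 3 or left 1. The type I interferon median ran from −0.04 to 0.23 and the interferon-γ median from −0.08 to 0.24, both below 0 without right 3 or left 1 and highest without right 1. The melanocyte median was above 0 only without right 1 (0.04), and otherwise −0.12 to −0.01. Medians from limma voom with sample quality weights lay outside these leave-out ranges. They were −0.22 for type I interferon, −0.31 for interferon-γ, −0.50 for T cell and −0.20 for macrophage genes. For melanocyte genes the value was −0.15 and for proliferation genes 0.28. Cdh5 and Vwf, of the endothelial list (median 0.07, and −0.17 without right 1), had log2 fold changes of 0.06 (−0.65 to 0.77) and −0.11 (−0.75 to 0.54). Outside the erythroid and muscle fibre lists, 3 members had an unadjusted p under 0.05 (chosen after the values were seen): Cldn5, a junction protein gene of endothelium (0.88, 0.11 to 1.66), Adm (0.68, 0.01 to 1.35) and Slc7a11 (0.57, 0.01 to 1.13). Over all 14849 genes tested, 116 (0.781%) had such a p, so these 3 were not read as a result about their lists.

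Position genes did not separate the sides either. The hindlimb factor Tbx4 was at 54.0, 67.8 and 32.5 CPM on the right and at 52.4, 48.0 and 55.0 CPM on the left, a log2 fold change of −0.01 (−0.47 to 0.46). Hoxa10, a patterning gene of the posterior body and hindlimb, averaged 50.2 ± 9.48 CPM. Pitx1, another hindlimb factor, was at or below 0.11 CPM, under the floor in each library.

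The spread between libraries was not alike on the 2 sides. Spearman correlations of log2 CPM over 14849 genes, which share each library's depth, were 0.990 to 0.996 between left libraries and 0.936 to 0.981 between right libraries, and 0.961 to 0.995 across the sides. The closest pair across sides was right 1 and left 1 (0.995). Right 2 and right 3 were the farthest pair of all, and 25.4% of genes differed by over 2-fold between them, while 0.57% did so between left 2 and left 3. The median SD of log2 CPM per gene was 0.38 on the right and 0.13 on the left, and the right SD was the larger for 12764 genes (86.0%). For comparison, the groups given cells had medians of 0.13 (pMC left), 0.18 (pMC right), 0.27 (IFN-α-pMC left) and 0.28 (IFN-α-pMC right). Genes of a library are not independent, so the count of genes with a larger right SD describes only 3 libraries per side. Right 2 and right 3, the pair farthest apart, also stood at opposite ends of the length trend. The difference of the side means was below the pooled SD in 91.3% of genes.

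Principal components of the 1000 most variable genes did not order the libraries by side. The first held 48.2% of the variance, with right 1 at 22.6, right 3 at 13.2 and left 1 at 11.7 on 1 end and right 2 at −22.0, left 2 at −15.6 and left 3 at −10.0 on the other. The second held 40.4% and set right 3 (28.3) against right 1 (−15.9), right 2 (−11.9) and left 1 (−11.1), with left 2 at 7.34 and left 3 at 3.26. The positive end of the first was led by Acta1, Ckm, Pvalb, Tnnt3, Tnni2, Mylpf, Myh4, Hspb7, H19 and Mb, most of them genes of the muscle fibre. Genes at the negative end included Gm4596, Gm10222, 9930111J21Rik1, Tox, 9930111J21Rik2, Vipr1, F830016B08Rik, C130026I21Rik and Trac; Tox encodes a factor of T cell exhaustion and Trac the T cell receptor α constant region.

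Skeletal muscle genes were the most variable group in untreated tumours. Acta1, skeletal muscle actin, was at 411, 6.04 and 49.6 CPM in right 1, right 2 and right 3 and at 171, 0.84 and 9.98 CPM in left 1, left 2 and left 3. Right 1 and left 1 were highest and left 2 lowest, a 491-fold range, and the sides overlapped widely. Myh4, the fast myosin heavy chain of type IIb fibres, was at 162, 7.15 and 21.1 CPM on the right and at 20.3, 0.21 and 7.22 CPM on the left. Of the 15 genes with the largest SD among those of at least 10 CPM, Acta1, Tnnt3, Myh4, Pvalb, Ckm, Flnc, Tnni2, Mylpf, Actn3, Myl1, Atp2a1 and Tpm2 encode contractile, calcium handling or energy proteins of muscle; the rest were Hspb7, a small heat shock protein of muscle, the imprinted RNA H19 and Car3, an anhydrase of muscle and fat. Of 25 tested muscle fibre genes, 24 were among the 1000 most variable genes, which hold 6.73% of all genes tested.

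**Figure D3:**
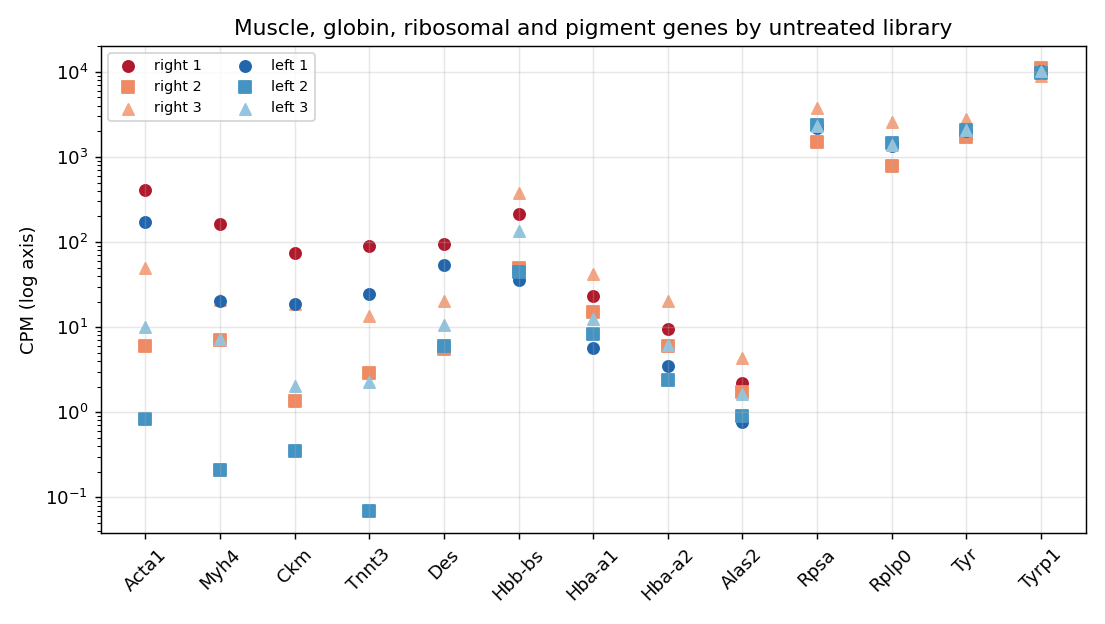
CPM on a log axis for 5 muscle genes, 4 red cell genes, 2 ribosomal protein genes and 2 pigment genes, 1 point per library. Acta1 spans 0.84 to 411 CPM, while Tyrp1 lies between 8987 and 11084 CPM in the 6 libraries.

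The 26 muscle fibre genes measured summed to 1579, 101 and 302 CPM in right 1, right 2 and right 3 and to 606, 81.8 and 118 CPM in left 1, left 2 and left 3. Their median log2 fold change was 0.96, 0 passed and 3 had an unadjusted p under 0.05: Pvalb at 3.01 (0.33 to 5.68), Actn3 at 2.77 (0.35 to 5.19) and Myh4 at 2.77 (0.07 to 5.47). Over all genes tested, 0.781% had such a p. The list's median was −0.57 without right 1, 3.52 without left 1 and 1.25 without both, and 0.51 to 1.40 without any other single library; it turned negative without right 1 alone. With limma voom and sample quality weights the list's median was 3.36. Eno3, the muscle enolase, did not follow the list (31.8 to 48.8 CPM), and Tnnc2 had no count in any library. Muscle fibre genes were not in 1 ratio, a reading chosen after the values were seen. Some were nearly confined to the libraries numbered 1. Myh7, the slow myosin, was at 4.37 CPM in right 1, 17.8 CPM in left 1 and 0 in the other libraries. Myoglobin, Mb, was at 22.9, 19.5 and at most 0.51 CPM. Myh2, a fast myosin, shared this pattern, at 16.1 CPM in right 1, 12.4 CPM in left 1 and at most 0.18 CPM elsewhere. Right 3 had other fast fibre genes with little of these: its Ckm was at 18.8 CPM, the level of left 1. Its Pvalb was at 18.96 CPM, above left 1 (8.69 CPM) and below right 1 (71.8 CPM).

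**Figure D4:**
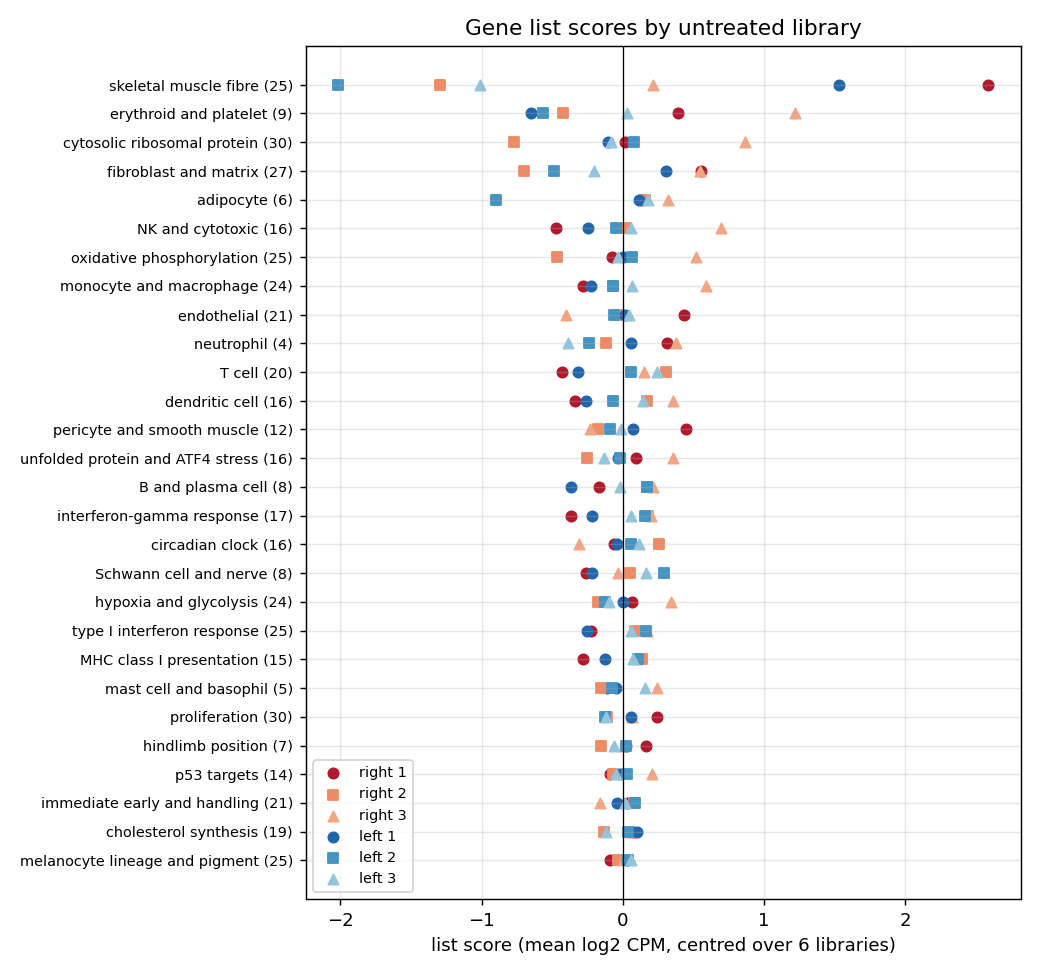
List scores by library: for each gene list with at least 4 genes tested (number in parentheses), the mean over its genes of log2 CPM centred on the 6 untreated libraries, 1 point per library. The muscle score runs from −2.02 to 2.58, while the melanocyte score stays between −0.09 and 0.06.

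List scores, the mean of a list's log2 CPM after centring each gene on the 6 libraries, showed which other groups moved with which library. The melanocyte score had the narrowest range of the 31 lists, 0.15, and the muscle fibre score the widest, 4.60. Fibroblast and matrix genes were high in right 1 (0.55), right 3 (0.54) and left 1 (0.30) and low in right 2 (−0.70), left 2 (−0.49) and left 3 (−0.21). Col1a1, the main fibrillar collagen gene, was at 133, 33.7 and 66.1 CPM on the right and at 101, 37.9 and 65.7 CPM on the left. The 4 highest libraries, right 1, left 1, right 3 and left 3, came in the same order as for Acta1, though right 3 and left 3 were near equal for Col1a1. The lowest library was right 2 for Col1a1 and left 2 for Acta1. T cell genes had the lowest scores where muscle genes were highest, −0.43 in right 1 and −0.32 in left 1, against 0.06 to 0.30 elsewhere. Whether muscle content has a part in these levels was not tested.

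Right 3 stood apart in macrophage and NK genes, but not in those of T cells or B cells. Its macrophage score was 0.59, with −0.28 to 0.06 in the other five, and its NK and cytotoxic score 0.70, with −0.47 to 0.05. Its T cell score, 0.15, was below those of right 2 (0.30) and left 3 (0.24), and its B and plasma cell score, 0.22, was next to those of right 2 and left 2 (both 0.17). Lyz2 was at 278, 184 and 752 CPM in right 1, right 2 and right 3 and at 283, 372 and 351 CPM in left 1, left 2 and left 3. Right 3 was highest and right 2 lowest, with left 1, left 2 and left 3 between them. Its endothelial score was the lowest, −0.40, and Cdh5, the cadherin of endothelial junctions, was at 14.1 CPM there and at 30.7 to 48.5 CPM in the other five. Lyz2 has an exonic length of 1316 bases and Cdh5 of 4203 bases. With the length and GC trend of each library taken off, the range of the NK score over the 6 libraries went from 1.17 to 0.73. That of the macrophage score went from 0.87 to 0.73 and that of the endothelial score from 0.84 to 0.60. Other ranges widened: that of the T cell score went from 0.74 to 0.86 and that of the B and plasma cell score from 0.58 to 0.78. The fibroblast and matrix range went from 1.25 to 1.41. Right 3 then no longer had the highest NK score (0.22, with 0.34 in right 2), and its B and plasma cell score was −0.10, with 0.43 in right 2. Its macrophage score stayed the highest (0.44, with at most 0.08 in the other five) and its endothelial score the lowest (−0.24).

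Ribosomal protein genes, which are short and abundant, differed most between right 2 and right 3. The 87 genes held 4.09%, 2.47% and 6.72% of the counts in right 1, right 2 and right 3 and 3.74%, 4.22% and 3.93% in left 1, left 2 and left 3. Rplp0 was at 1450, 786 and 2581 CPM on the right and at 1344, 1476 and 1400 CPM on the left. Right 2 was the lowest and right 3 the highest, with the left libraries between them. The score of the 30 ribosomal genes of the list ran from −0.77 in right 2 to 0.87 in right 3, and that of 25 oxidative phosphorylation genes from −0.46 to 0.51 in the same 2 libraries. With the length and GC trend taken off, these ranges went from 1.64 to 1.19 and from 0.98 to 0.47.

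The length trend itself was seen over all genes. Spearman correlations across genes between exonic length and the centred log2 CPM of a library were 0.51 in right 2 and −0.49 in right 3, against −0.08 to 0.20 in the other four; genes are not independent replicates, and these values describe single libraries. In the 1441 shortest genes (up to 1309 bases) the median centred log2 CPM was −0.34 in right 2 and 0.52 in right 3, and in the 1440 longest (from 9611 bases) it was 0.28 and −0.48. The left libraries stayed between −0.07 and 0.07 in all 10 length bins, and right 1 between −0.08 and 0.07. For GC content the largest correlations were 0.32 in right 1 and 0.31 in left 1, with −0.23 in right 3. Measures of RNA quality were not used here, and the part of RNA quality or library preparation in this trend was not tested.

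**Figure D5:**
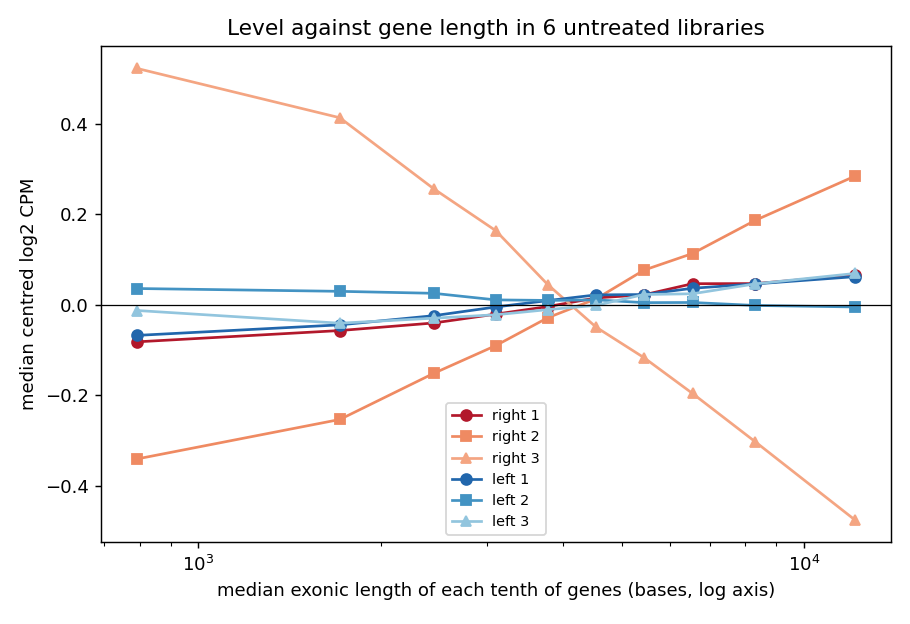
Median centred log2 CPM in 10 bins of genes by exonic length (log axis, bases), 1 line per untreated library. Right 3 falls from 0.52 to −0.48 and right 2 climbs from −0.34 to 0.28, while the other 4 lines stay near 0.

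At the other end, 10 genes of at least 50 CPM varied least. They were Nmt2 (81.3 ± 5.20 CPM), Usp16, Ldah, Lsm14a (121 ± 6.84 CPM), Nudcd3, Tmem173, Ywhaz (419 ± 25.7 CPM), Cat, Cnot10 and Zfp422. Tmem173 encodes STING, the adaptor of cytosolic DNA sensing, and was at 76.9, 79.1 and 66.3 CPM on the right and at 76.4, 74.8 and 73.4 CPM on the left. Ywhaz encodes a 14-3-3 protein and Cat catalase. In CPM without TMM scaling (edgeR's correction of library sizes), right 3 was the lowest library for each of the 10 genes. Gapdh, a common reference gene, was not steady: it was at 102, 27.3 and 139 CPM in right 1, right 2 and right 3 and at 33.5, 24.7 and 67.6 CPM in left 1, left 2 and left 3. Read pairs that align to more than 1 place, 20.8 to 24.3% of all, are outside the counts, and Gapdh has many near-identical pseudogenes, so its counts are uncertain.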

How the data were processed

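RNA of 6 untreated MO4 tumours was read within a series of 18 stranded mRNA libraries. The authors deposited 1 table per library with unnormalised counts for 37620 Ensembl gene IDs; the values are whole numbers, and messages from the counter speak of read pairs. Per the submitters' processing notes, the tools were HISAT2 2.1.0, HTSeq 0.10.0, Trimmomatic 0.36, CASAVA 1.8.2, bcl2fastq, FastQC and DESeq2 1.20.0, and the build mm9. For the annotation release and strand setting no source used here gives a value; sense and antisense reads may be mixed. Summary rows were left out; 60.2 to 65.7% of read pairs were assigned to genes. The counter's messages name 1 lane.

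Symbols, exonic length and GC came from GENCODE M21 (GRCm38), matched by ID for 32897 IDs. The sides were compared with edgeR 4.0.16 (R 4.3.3; TMM, default filter, 1 mean per group over all 18 libraries, two-sided quasi-likelihood F test, Benjamini-Hochberg threshold 0.05); intervals use 12 residual degrees of freedom. This step was tested on simulated data. Log2 CPM used TMM library sizes and a prior of 0.5 CPM; CPM as printed used plain totals. Alternatives used DESeq2 1.42.0, limma 3.58.1, other scalings, filters, offsets and left-out libraries: 17 planned and 2 added after seeing the data.

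Named genes are the 25 most abundant and 10 highest per length, the 12 with the smallest p where fewer than 12 pass, the 15 most variable (mean of at least 10 CPM), the 10 least variable (at least 50 CPM), the 10 at each end of component 1 and up to 4 per list; other names were chosen after values were seen. The members and lists were chosen with earlier results of these data known. Values of a few genes are not reported here.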

Additional observations from a re-analysis of the deposited data

Results flagged for a closer look

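Over the 6 untreated libraries, 65 measures (31 list scores, 9 measures of the libraries such as depth, and the CPM of the 25 most abundant genes) were examined for a single library far from the others, and 6 had a gap above Dixon's critical share of the whole range; chance alone gives about 1 in 20. The adipocyte score of left 2 was −0.90, with the next lowest at 0.11. Dct was at 15461 CPM in right 3, with the next highest at 11458 CPM. Tyr was at 2794 CPM in right 3, with the next at 2098 CPM. Aldoa was at 3820 CPM in right 3, with the next at 3065 CPM. Pgk1 was at 2580 CPM in right 3, with the next at 1725 CPM. Pmel was at 7067 CPM in right 1, with the next lowest at 7917 CPM. Of these 6, 4 are values of right 3.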

How the results depend on the processing

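Under each of 17 alternative settings 0 genes passed between right and left untreated tumours. Unadjusted p-values under 0.05 ranged from 28 genes (0.202%, the 6 untreated libraries alone) to 1507 (10.1%, limma voom with sample quality weights). Without right 2 and right 3 together, an alternative chosen after seeing the data that leaves 1 right library whose spread is assumed to be like that of the other groups, 1 gene passed. Without right 1 and left 1 together, 0 passed. With a replicate block, 0 passed on 18 libraries (smallest adjusted p 0.6163), on the 6 alone (0.2357) and with length and GC offsets (0.1497). Deviations of same-numbered right and left libraries correlated at 0.63, 0.02 and −0.04, so the numbers were not read as pairs. Right 2 and right 3 each correlated best with another number. The length trends of right 2 and right 3 enter these values, so they cannot decide whether same-numbered tumours shared a mouse. The lowest Spearman correlation of 0.936 became 0.810 over genes with a mean of at least 10 CPM, and 0.936 to 0.981 when 1 library was left out, 0.955 without right 2 and 0.981 without right 3. The share of the 25 most abundant genes stayed between 8.99 and 9.49%. Of 588 list medians under alternatives, 52 moved by over the spread between libraries and 536 did not. Depth limits genes under about 0.2 CPM, where 3 counts is the floor.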

Other observations

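Right 1 held transcripts known from developing or denervated muscle at levels well above the other libraries; these genes were chosen after their values were seen and belong to no comparison. Myog, the myogenic factor myogenin, was at 14.3 CPM in right 1 and at most 0.65 CPM in the other five. Myod1, which sets muscle identity, was at 4.85 CPM and at most 0.53 CPM. Chrna1, a subunit of the muscle acetylcholine receptor, was at 6.31 CPM in right 1, 1.23 CPM in left 1 and at most 0.46 CPM elsewhere. Ankrd1, a stretch-responsive muscle gene, was at 48.8 CPM in right 1, 7.34 CPM in left 1 and at most 0.63 CPM elsewhere. Myh3, the embryonic myosin, did not share this pattern, at 6.79 CPM in right 1 and 0.63 to 4.56 CPM in the other five. Left 1, which had the higher Myh7, was thus low in Myog and Myod1.

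Genes that often bear on melanoma growth were read in the same way. Cdkn2a, which encodes the tumour suppressors p16 and Arf, was at or below 0.14 CPM in the 6 libraries, and Cdkn2b at or below 0.23 CPM. The receptor gene Met averaged 1564 ± 331 CPM, the cyclin gene Ccnd1 414 ± 82.5 CPM and Myc 137 ± 27.6 CPM, while Mycn was at or below 0.19 CPM. Nras was at 97.3 to 104 CPM in all 6 libraries. Arg1, an enzyme of some macrophages, was at 4.85 CPM in right 3 and at most 0.94 CPM elsewhere, and the pattern receptor gene Clec7a at 38.3 CPM in right 3 and 8.01 to 21.2 CPM elsewhere.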
